A study of Homo sapiens with 8 samples.

Results

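The genes described here are 10 members and partners of the AP-1 family of transcription factors, *JUN*, *JUNB*, *JUND*, *FOS*, *FOSB*, *FOSL1*, *FOSL2*, *ATF3*, *BATF3* and *MAFF*, out of 19974 protein-coding genes of the RefSeq table used. They were chosen by name, and every H3K27ac peak in each gene and up to 50 kb either side of it was taken. MIA PaCa-2 is an established pancreatic carcinoma line. MP2_HDAC1_OE cells carry the lentiMPHv2 and lentiSAMv2 activation system with an sgRNA to *HDAC1*, which encodes a histone deacetylase, an enzyme that removes acetyl groups, and MP2_NTC cells carry the same system with a non-targeting sgRNA. H3K27ac, an acetylation of histone H3 found at active promoters and enhancers, was mapped by ChIP-sequencing in 2 samples per line, each line also having 2 control samples without antibody. The deposited data hold 1 peak list per line, made from both H3K27ac samples, so there is no value per sample, no spread between replicates and no test of a difference. The lists hold no read counts, and the depth is unknown. No peaks of the control samples alone were analysed here. All coordinates are in GRCh38 (hg38).

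AP-1 is a dimer of basic leucine zipper proteins, usually a Jun protein with a Fos or ATF protein. It binds the TRE, which was searched for here as TGANTCA with any base at N. Jun/ATF dimers also bind the longer TGACGTCA, called the CRE. Several of the genes are immediate early genes, whose transcription rises within minutes of a growth or stress signal and which can be bound by AP-1 itself.

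Each peak has a signal, the enrichment value the authors' caller gave it. The MP2_HDAC1_OE list held 25045 peaks with signals from 11.01 to 185 and the MP2_NTC list held 22569 peaks with signals from 11.7 to 220. No source used here says how the signals of 1 list relate to those of the other, so signals were not compared in size. The rank of a peak is used instead, the percent of the peaks of its own list that had a lower signal. Peaks of both lists that overlapped by at least 1 bp were joined into regions, and a region is called shared where it held peaks of both lines and unique where it held peaks of 1 line. A gene-end region lies within 2 kb outside or 1 kb inside either end of a protein-coding gene, and a distal region touches no such window. *HDAC1* itself had a strongest gene-end peak with a signal of 91.6 and a rank of 93.9 in MP2_HDAC1_OE and a signal of 46.7 and a rank of 45.2 in MP2_NTC. It had 2 gene-end peaks with a summed signal of 128 in MP2_HDAC1_OE and 3 with a summed signal of 126 in MP2_NTC.

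The promoters of 4 of the genes are shown because the position of the peaks against the start site differed from gene to gene. Each sequence holds the 250 bases before the annotated start, 5′ to 3′ on the strand of the gene, from RefSeq (GRCh38.p14). Capitals mark exact matches to the CRE (TGACGTCA), to its variant TGACATCA known from the *JUN* promoter, to the TATA box (TATAAA) and to the GC box (GGGCGG, which reads CCGCCC on the other strand), with both strands searched and no matches overlapping. The *JUN* sequence is chr1:58784048-58784297 on the minus strand, the *JUND* sequence is chr19:18281623-18281872 on the minus strand, the *FOS* sequence is chr14:75278578-75278827 on the plus strand and the *MAFF* sequence, before the first of its 2 annotated starts, is chr22:38201744-38201993 on the plus strand.
JUN: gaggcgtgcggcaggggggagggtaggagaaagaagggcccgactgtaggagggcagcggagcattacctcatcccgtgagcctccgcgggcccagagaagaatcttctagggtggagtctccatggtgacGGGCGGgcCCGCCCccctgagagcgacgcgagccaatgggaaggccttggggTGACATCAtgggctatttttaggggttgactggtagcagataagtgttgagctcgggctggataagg
JUND: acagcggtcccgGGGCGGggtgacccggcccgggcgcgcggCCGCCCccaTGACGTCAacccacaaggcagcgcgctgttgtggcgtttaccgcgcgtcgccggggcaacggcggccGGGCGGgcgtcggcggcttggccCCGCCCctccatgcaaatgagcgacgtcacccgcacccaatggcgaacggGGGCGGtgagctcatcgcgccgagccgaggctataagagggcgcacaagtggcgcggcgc
FOS: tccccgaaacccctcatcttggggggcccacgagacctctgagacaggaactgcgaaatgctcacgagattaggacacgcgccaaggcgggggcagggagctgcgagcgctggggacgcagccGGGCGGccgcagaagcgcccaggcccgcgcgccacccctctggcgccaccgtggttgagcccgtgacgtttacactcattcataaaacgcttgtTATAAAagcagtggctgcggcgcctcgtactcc
MAFF: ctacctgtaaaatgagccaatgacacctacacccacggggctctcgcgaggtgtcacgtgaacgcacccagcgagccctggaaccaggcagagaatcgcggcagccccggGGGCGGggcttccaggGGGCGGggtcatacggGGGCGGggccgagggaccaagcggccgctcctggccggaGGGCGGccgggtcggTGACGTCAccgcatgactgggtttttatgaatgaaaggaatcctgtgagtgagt

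The *JUN* promoter held TGACATCA 67 to 60 bases before its start, a sequence found in 1.94% of the 22132 protein-coding promoters searched. The only other member window with it was that of the first *ATF3* start, at 123 to 116 bases. The CRE, in 2.02% of all promoters, lay 200 to 193 bases before the *JUND* start and 54 to 47 bases before the *MAFF* start. The TATA box, in 9% of all promoters, lay 33 to 28 bases before the *FOS* start, and was also found 31 to 26 bases before the *JUNB* start and 30 to 25 bases before the *FOSB* start. The second *ATF3* start had one farther off, at 230 to 225 bases. The TRE pattern (TGANTCA) and the CArG box, which serum response factor binds, were found in 5.35% and 1.18% of all promoters. Each was found in 0 of the 10 member windows. These windows hold 250 bases before a start, so sites farther upstream were not searched. The GC box, in 53.7% of all promoters, was present in the windows of *JUN*, *JUND*, *FOS*, *FOSB*, *FOSL2*, *ATF3* and *MAFF*. Of the 10 genes, 8 had a promoter entry. These matches describe the letters only.

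For the comparison with peaks the promoter was taken as 300 bases that also include the 50 bases after the start. At *FOS* the peaks of MP2_HDAC1_OE covered all 300 bases and those of MP2_NTC covered 270. At *FOSL2* the MP2_NTC peaks, 820 bp wide, covered all 300 bases, while an MP2_HDAC1_OE peak 205 bp wide reached 14 of them. The *MAFF* window at its first start had 238 bases under an MP2_NTC peak and 0 under MP2_HDAC1_OE, with an MP2_HDAC1_OE peak beginning 76 bp downstream of it. That MP2_HDAC1_OE peak was 316 bp wide and lay inside the MP2_NTC peak, which was 820 bp wide. Of all listed peaks, 56.4% in MP2_HDAC1_OE and 61.7% in MP2_NTC were 820 bp wide. The bases covered depend on these listed widths, so they do not show that the mark lay over a start in 1 line only. The *JUN*, *JUNB*, *JUND* and *FOSB* windows lay under no peak of either list, although peaks flanked them. On the *JUND* window the nearest upstream peaks were 167 bp away in MP2_HDAC1_OE and 169 bp away in MP2_NTC. At *JUN* the upstream distances were 464 bp and 114 bp. Downstream, the nearest peaks in MP2_HDAC1_OE and MP2_NTC were 793 bp and 494 bp away at *JUND*, and 197 bp and 28203 bp away at *JUN*. Among all promoter windows with a peak within 1 kb, 76.1% in MP2_HDAC1_OE and 76.9% in MP2_NTC were overlapped by a peak by at least 1 base.

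The windows of the AP-1 genes held 100 listed peaks of MP2_HDAC1_OE, at 97 different intervals, and 78 of MP2_NTC, at 72 intervals. They formed 66 regions of the 18678 in all. Of these, 25 were unique to MP2_HDAC1_OE (37.9%, 95% Wilson interval 27.1 to 49.9, counting error only), 8 were unique to MP2_NTC (12.1%, 6.27 to 22.1) and 33 were shared (50%, 38.3 to 61.7). Over all regions the shares were 28.6% unique to MP2_HDAC1_OE, which lies inside the members' interval, and 20.7% unique to MP2_NTC, also inside. Regions near each other are not independent, and the 8 *JUN* regions weighed on the first share, which was 32.8% without them.

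Distal regions made up 33 of the 66, against 44.9% of all regions. Of the 33, 17 were unique to MP2_HDAC1_OE (51.5%, 35.2 to 67.5), 4 were unique to MP2_NTC (12.1%, 4.82 to 27.3) and 12 were shared. Over all distal regions 38.9% were unique to MP2_HDAC1_OE and 25.2% to MP2_NTC, both within these intervals. The ends of the AP-1 genes themselves carried 18 regions, 5 unique to MP2_HDAC1_OE (27.8%, 12.5 to 50.9), 2 unique to MP2_NTC (11.1%, 3.10 to 32.8) and 11 shared. A further 15 regions lay at the ends of neighbouring genes, 3 unique to MP2_HDAC1_OE, 2 to MP2_NTC and 10 shared. Of all gene-end regions 20.2% were unique to MP2_HDAC1_OE and 17% to MP2_NTC.

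**Figure D1:**
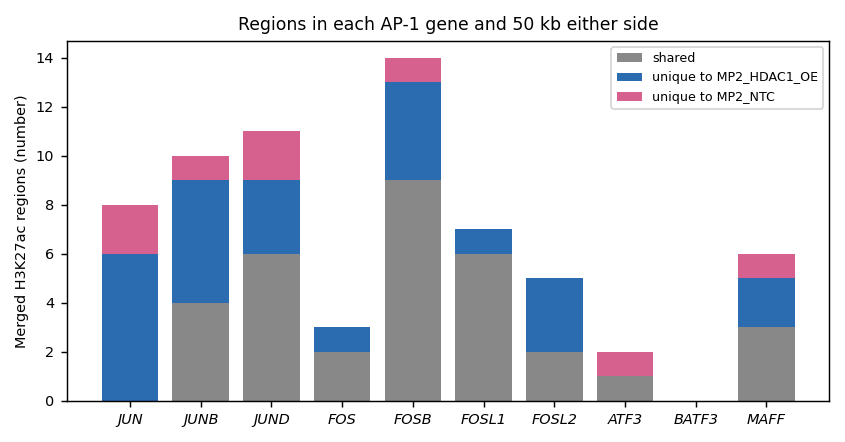
Number of merged H3K27ac regions in each AP-1 gene and 50 kb either side (vertical axis), stacked as shared (grey), unique to MP2_HDAC1_OE (blue) and unique to MP2_NTC (pink). *FOSB* had the most regions with 14, *JUN* had 8 and none of them shared, and *BATF3* had none.

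Of the 10 genes, 9 had a region, compared with 28.3% of all protein-coding genes having none within 50 kb. At least 1 region unique to MP2_HDAC1_OE was present at 8 of the 9, against 51.3% of all genes with a region, and at least 1 unique to MP2_NTC at 6 of the 9, against 46.3%. The median protein-coding gene with a region had 3 (interquartile range 1 to 5). *FOSB* with 14, *JUND* with 11, *JUNB* with 10, *JUN* with 8, *FOSL1* with 7 and *MAFF* with 6 lay above that range. A window with more regions has more chances to hold a unique one.

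**Figure D2:**
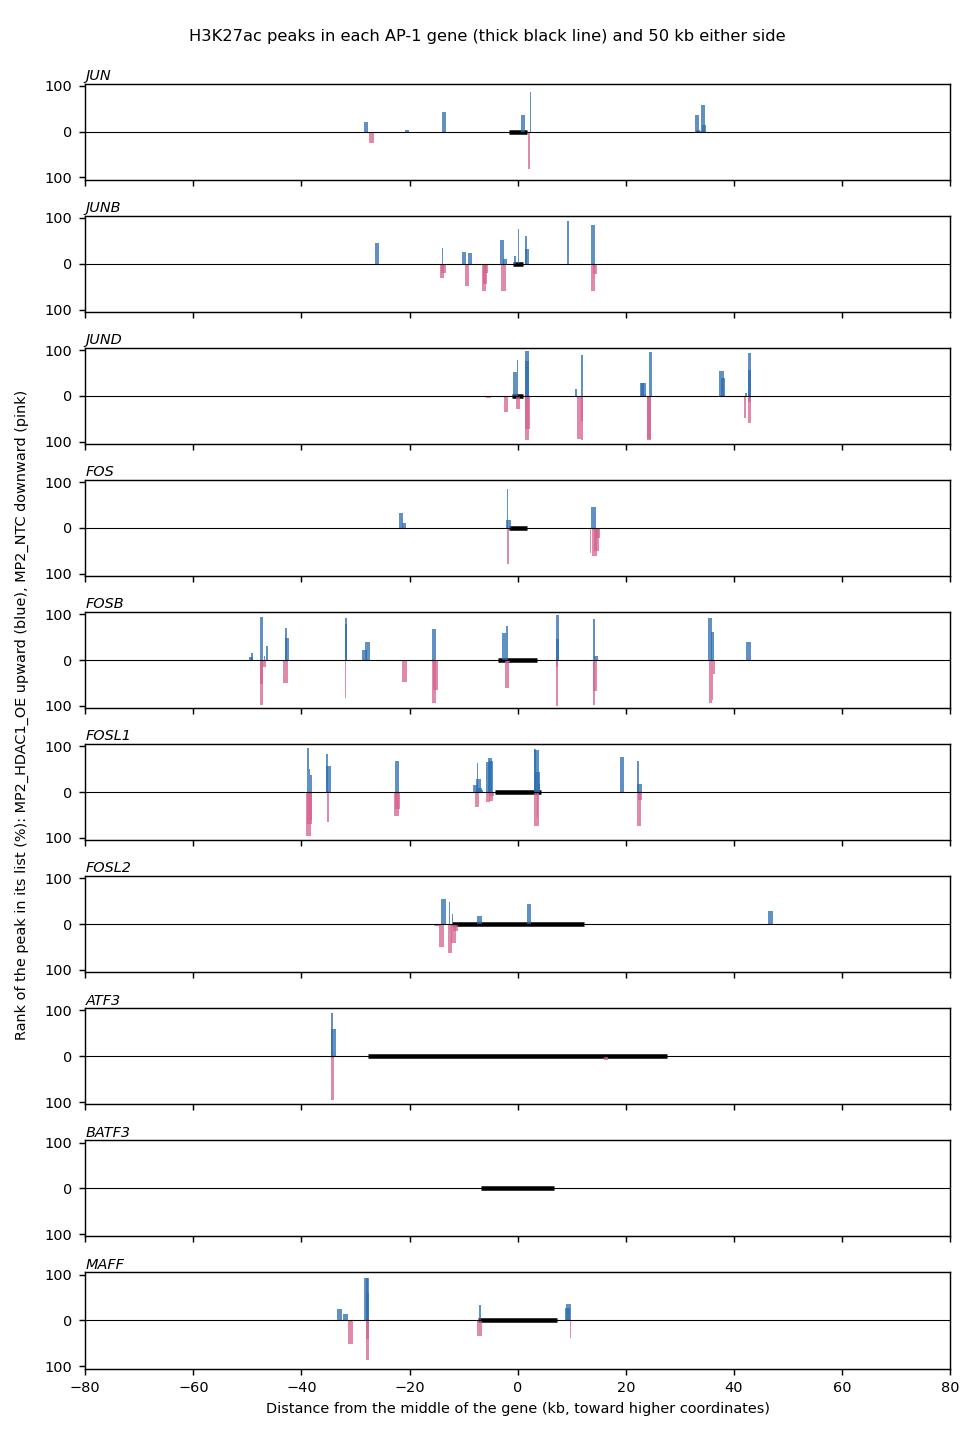
Every H3K27ac peak in the window of each AP-1 gene, by distance in kb from the middle of the gene (horizontal axis, rising with genome coordinate) and by rank in its list in percent (vertical axis), with MP2_HDAC1_OE upward in blue, MP2_NTC downward in pink and the gene as a thick black line. *JUN* shows 10 blue and 2 pink peaks. Nearly all peaks at *FOSL1* lie opposite each other, as do most at *JUND*, *FOS* and *FOSB*.

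Of the Jun genes, *JUN* (gene ID 3725, chr1:58780791-58784047, minus strand) encodes c-Jun, the principal partner of Fos proteins. Its window held 10 MP2_HDAC1_OE peaks and 2 MP2_NTC peaks, in 6 regions unique to MP2_HDAC1_OE, 2 unique to MP2_NTC and 0 shared. Of the genes with a region, 14.4% had no shared one, 1.47% had at least as many unique to MP2_HDAC1_OE, and 0.0768% (11 of 14316) had both features. *JUN* was singled out after its values were seen, so these shares describe its place and test nothing. At its start the lines differed little in rank: the strongest MP2_HDAC1_OE peak, chr1:58784761-58784969, had a signal of 76.8 (rank 86.7), and the MP2_NTC peak, chr1:58784411-58784649, had a signal of 75.4 (rank 81.6). These narrow peaks lay 112 bp apart, both upstream of the start, so the absence of a shared region at this promoter rests on that gap. When gaps of up to 500 bp were bridged, the *JUN* window had 2 shared regions, 4 unique to MP2_HDAC1_OE and 0 unique to MP2_NTC.

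Over the single exon of *JUN* a further MP2_HDAC1_OE peak, chr1:58782982-58783801, had a signal of 40.3 (rank 37.4). The distal *JUN* region with the highest rank, chr1:58815147-58817296, joined 5 MP2_HDAC1_OE peaks over 2150 bp. It began 31.1 kb upstream of the start, over the long noncoding gene *JUN-DT* and at an end of *LOC101926907*, which it also overlaps. Its strongest peak had a signal of 51.0 (rank 58.4), and the nearest MP2_NTC peak was 30498 bp away. The other distal MP2_HDAC1_OE regions lay beyond the 3′ end of the gene, at 11.58 kb (signal 42.9, rank 43.0), 18.41 kb (13.6, rank 2.55) and 26.05 kb (29.4, rank 20.8). The last of these had an MP2_NTC peak 234 bp away with a signal of 36.0 (rank 25.4). Of the 6 regions unique to MP2_HDAC1_OE, the promoter peak thus ranked first and the one in *JUN-DT* next. All regions at the ends of *JUN* also lie at an end of *JUN-DT*, so they cannot be assigned to *JUN* from position alone.

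*JUNB* (gene ID 3726, chr19:12791486-12793315, plus strand) encodes a Jun protein that activates less strongly than c-Jun. It had 12 MP2_HDAC1_OE and 11 MP2_NTC peaks in 10 regions, 5 unique to MP2_HDAC1_OE, 1 unique to MP2_NTC and 4 shared. The gene body and its 3′ flank carried MP2_HDAC1_OE peaks alone. These regions were chr19:12791807-12792161 (signal 25.3, rank 16.3), chr19:12792397-12792610 (63.5, rank 75.7) and chr19:12793749-12794578 (52.8, rank 61.5), and the nearest MP2_NTC peaks were 1648 to 3590 bp away. All 3 also lie at an end of the neighbouring gene *HOOK2*. The strongest MP2_NTC peak at a *JUNB* end, chr19:12789340-12790159, was upstream of the start with a signal of 55.0 (rank 59.4), in a region shared with MP2_HDAC1_OE (47.0, rank 51.0). The region unique to MP2_HDAC1_OE with the highest rank in all the AP-1 windows, chr19:12801481-12801871, had a signal of 91.1 (rank 93.7) and lay 8.17 kb from *JUNB*, at the ends of *PRDX2* and *THSD8*. The MP2_NTC list had its own region 4.55 kb before *JUNB*, chr19:12785714-12786938, inside *HOOK2* (55.8, rank 60.6).

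*JUND* (gene ID 3727, chr19:18279694-18281622, minus strand) encodes a Jun protein present in most resting cells. It had 15 and 13 peaks in MP2_HDAC1_OE and MP2_NTC, in 11 regions of which 6 were shared. Its promoter peak was the highest ranked at any AP-1 gene end in both lines and had nearly the same interval, chr19:18282039-18282804 with a signal of 112 (rank 98.2) in MP2_HDAC1_OE and chr19:18282041-18282804 with a signal of 113 (rank 96.5) in MP2_NTC. The region over the gene body, chr19:18279765-18281079, was far apart in rank, with a signal of 65.1 (rank 77.4) against 38.6 (rank 29.7). That difference of 47.7 points was the largest toward MP2_HDAC1_OE among the shared regions of the AP-1 genes. The largest toward MP2_NTC was also in this window, a difference of −42.7 points at the *LSM4* end (chr19:18322547-18323016, signal 16.9 against 48.7), whereas a region less than 1 kb from it (chr19:18323291-18323903) was 34.3 points higher in MP2_HDAC1_OE. Just past the 3′ end of *JUND* a region unique to MP2_NTC, chr19:18278083-18278902, had a signal of 41.5 (rank 35.5).

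Of the Fos genes, *FOS* (gene ID 2353, chr14:75278828-75282230, plus strand) encodes c-Fos, a classic immediate early protein that needs a Jun partner to bind DNA. Both lists had 5 peaks in its window. The promoter was shared, with a strongest MP2_HDAC1_OE peak chr14:75278567-75278800 (signal 74.0, rank 84.9) and a strongest MP2_NTC peak chr14:75278550-75278847 (71.4, rank 78.3), over the sequence printed above. A region 11.72 kb past the gene, chr14:75293955-75295742 in the noncoding gene *LINC01220*, had a difference of −13.8 points between MP2_HDAC1_OE (signal 44.8, rank 46.6) and MP2_NTC (55.7, rank 60.4). The third region, chr14:75258495-75259880, lay 18.95 kb before the gene and was unique to MP2_HDAC1_OE (38.0, rank 32.6), with the nearest MP2_NTC peak 18670 bp away.

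*FOSB* (gene ID 2354, chr19:45467996-45475179, plus strand) encodes FosB. Its window was the richest, with 21 MP2_HDAC1_OE and 17 MP2_NTC peaks in 14 regions, 9 shared, 4 unique to MP2_HDAC1_OE and 1 unique to MP2_NTC. The region over the 5′ part of the gene, chr19:45468672-45470208, was shared, with a signal of 62.2 (rank 74.3) against 56.3 (rank 61.3). Only the MP2_HDAC1_OE list placed a peak of it inside the gene-end window (chr19:45468672-45469491, signal 50.8, rank 58.1), since the MP2_NTC peak began farther into the gene. The highest-ranked region in the windows of the AP-1 genes in both lists was chr19:45478612-45479180, over the selenocysteine tRNA gene *TRU-TCA1-1* and 3.43 kb past *FOSB*, with a signal of 127 (rank 99.4) in MP2_HDAC1_OE and 150 (rank 99.4) in MP2_NTC. Of the 14 regions 8 lay in *ERCC1*, a DNA repair gene, and the strongest of them, chr19:45423891-45424543, had a signal of 92.6 (rank 94.2) against 144 (rank 99.2).

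*FOSL1* (gene ID 8061, chr11:65892049-65900545) encodes FRA-1, a Fos protein abundant in many invasive carcinoma lines. It had 21 MP2_HDAC1_OE and 15 MP2_NTC peaks, in 7 regions of which 6 were shared. Both ends of the gene ranked higher in MP2_HDAC1_OE. At the higher-coordinate end the strongest peaks were chr11:65899375-65899770 with a signal of 91.8 (rank 93.9) and chr11:65899369-65900188 with a signal of 66.2 (rank 73.4), 20.5 points apart. At the other end the region chr11:65887952-65891915 held 8 MP2_HDAC1_OE and 5 MP2_NTC peaks, with a strongest signal of 62.4 (rank 74.5) against 40.0 (rank 32.4), 42.1 points apart. The MP2_NTC peak of 40.0, chr11:65888385-65889204, lay outside the *FOSL1* gene-end window. Inside that window the strongest MP2_NTC peak, chr11:65890390-65891209, had a signal of 32.7 (rank 21.4). This second region also lies at the ends of *CCDC85B* and *FIBP*, so it cannot be assigned to *FOSL1* from position alone. Its only unique region, chr11:65915133-65915952, was in the MP2_HDAC1_OE list (64.6, rank 76.9), at the end of *C11orf68*. On chromosome 11, 35.3% of all regions were unique to MP2_HDAC1_OE and 18.2% to MP2_NTC, against 28.6% and 20.7% over all chromosomes. Whether the ranks at *FOSL1* follow its chromosome was not tested.

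*FOSL2* (gene ID 2355, chr2:28392858-28417317, plus strand) encodes FRA-2. It was the only AP-1 gene whose strongest gene-end peak ranked lower in MP2_HDAC1_OE with all peaks ranked, with a difference of −8.23 points. The MP2_HDAC1_OE peak, chr2:28390955-28391774, was upstream of the start (signal 49.4, rank 55.5), and the MP2_NTC peak, chr2:28392200-28393019, was over it (58.1, rank 63.8). The region around the start, chr2:28392200-28393990, was shared, but its MP2_HDAC1_OE peaks lay on either side of the start itself, at chr2:28392417-28392621 (46.0, rank 49.1) and chr2:28392938-28393179 (31.3, rank 22.8). The 3 distal regions were all unique to MP2_HDAC1_OE. Of these, 2 lay inside the gene, chr2:28397590-28398409 (26.5, rank 17.6) and chr2:28406735-28407554 (43.1, rank 43.3), and the third, chr2:28451461-28452280 (35.7, rank 28.5), lay 34.14 kb past it, with the nearest MP2_NTC peak 57471 bp away.

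Of the remaining partners, *ATF3* (gene ID 467, chr1:212565407-212620777, plus strand), a stress-induced ATF protein that can repress transcription, had no gene-end peak in either list and no region unique to MP2_HDAC1_OE. A strong region 6.02 kb before its first start, chr1:212558506-212559386, was shared, with a signal of 91.8 (rank 93.9) against 104 (rank 94.8). A weak peak inside the gene was found in MP2_NTC alone, chr1:212609045-212609864 (19.4, rank 7.81), 5154 bp from the second start in the promoter set used. Whether a start outside that set lies nearer was not examined. Gene-end windows cover only the outer ends of this gene, so a peak at a start inside it is not counted as gene-end. *BATF3* (gene ID 55509, chr1:212686417-212699840), which encodes a partner of Jun proteins best known from dendritic cells, had no peak of either list within 50 kb. The nearest peaks were 91.4 kb away in MP2_HDAC1_OE and 76.6 kb away in MP2_NTC, the latter being the weak *ATF3* peak.

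*MAFF* (gene ID 23764, chr22:38201994-38216511, plus strand) encodes a small Maf protein, which has a leucine zipper but no activation domain. It had 8 MP2_HDAC1_OE and 5 MP2_NTC peaks in 6 regions. Its strongest gene-end peaks were the lowest ranked of the AP-1 genes that had any, chr22:38218276-38219095 past the gene in MP2_HDAC1_OE (signal 39.3, rank 35.3) and chr22:38201806-38202625 at the start in MP2_NTC (40.4, rank 33.1). At the start alone the ranks were 34.2 and 33.1. A shared region at the *PLA2G6* end, chr22:38180731-38181776, was much stronger in its lists (88.0, rank 92.6, against 81.6, rank 85.7). The 3 unique regions lay together inside *PLA2G6*: 2 from MP2_HDAC1_OE (ranks 24.9 and 14.1) and 1 from MP2_NTC (49.8, rank 50.8), the latter 115 bp from the nearer of the others.

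A gene-end peak was present at 8 of the 10 genes in MP2_HDAC1_OE, against 43.4% of all protein-coding genes, and at 7 in MP2_NTC, against 42.3%. By rank in MP2_HDAC1_OE the order was *JUND*, *FOSL1*, *JUN*, *FOS*, *JUNB*, *FOSB*, *FOSL2* and *MAFF*. In MP2_NTC it was *JUND*, *JUN*, *FOS*, *FOSL1*, *FOSL2*, *JUNB* and *MAFF*. With 1 list per line there is no spread by which to tell neighbours in either order apart. Of the 7 genes with a gene-end peak in both lines, 6 ranked higher in MP2_HDAC1_OE, where 54.5% of the 7400 such genes did. The MP2_HDAC1_OE list is the longer one, and with equal numbers of peaks 5 of the 7 and 49.9% of such genes ranked higher in it, *MAFF* then being lower (28.1 against 33.1). The median of the 7 was 84.9 against 73.4, with a median difference of 5.16 points. Over all genes the median rank was 76.5 (interquartile range 56.1 to 89.8) in MP2_HDAC1_OE and 74.5 (54.0 to 89.1) in MP2_NTC, and the median difference was 1.10 points (−9.26 to 13.2). *JUNB* and *FOSL1* lay above that last range and the other 5 within it. The peaks compared did not overlap at *JUN*, *JUNB*, *FOSL2* and *MAFF*. In the shared region upstream of the *JUNB* start the difference was −8.48 points.

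**Figure D3:**
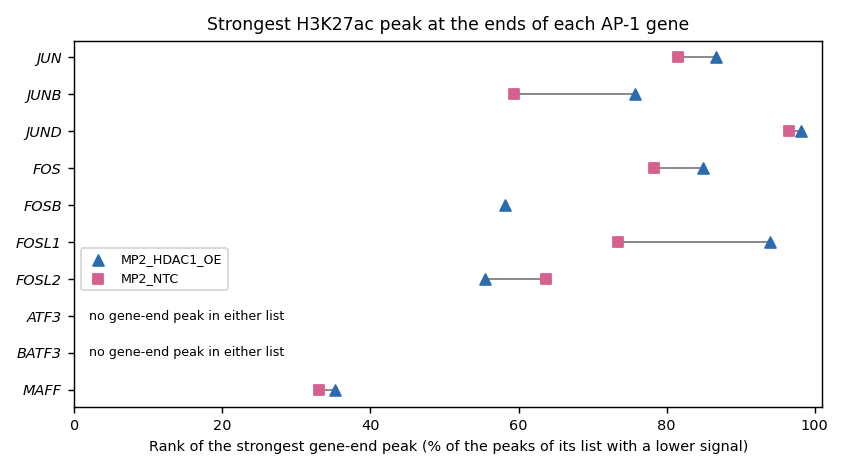
Rank of the strongest gene-end H3K27ac peak of each AP-1 gene, as the percent of the peaks of its list with a lower signal (horizontal axis), in MP2_HDAC1_OE (blue triangles) and MP2_NTC (pink squares), 1 value per line. The widest gap is at *FOSL1* (93.9 against 73.4), and *FOSL2* is the only gene with the square to the right, to which *MAFF* was added with equal numbers of peaks. The peaks compared do not overlap at *JUN*, *JUNB*, *FOSL2* and *MAFF*.

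Across the 33 shared regions the difference in rank, MP2_HDAC1_OE minus MP2_NTC, had a median of 0.40 points (interquartile range −6.27 to 12.9). In 17 regions the rank was higher in MP2_HDAC1_OE and in 16 it was higher in MP2_NTC. Over all 9477 shared regions the median was 1.51 points (−10.4 to 15.6) and 54.7% ranked higher in MP2_HDAC1_OE. Differences of over 20 points in either direction were found at 9 of the 33 regions, against 34.4% of all shared regions. The shared regions of the AP-1 genes thus lay within the spread of the rest.

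**Figure D4:**
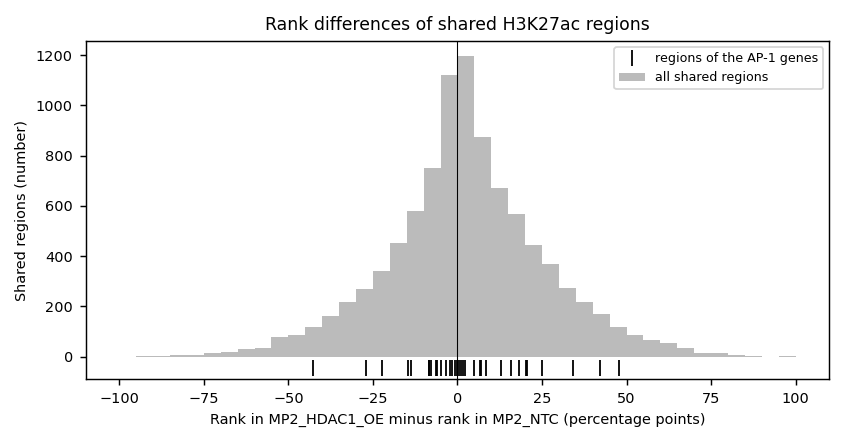
Number of shared H3K27ac regions (vertical axis) by rank in MP2_HDAC1_OE minus rank in MP2_NTC in percentage points (horizontal axis), for all 9477 shared regions (grey bars), with the 33 of the AP-1 genes as black ticks below. The ticks spread from −42.7 to 47.7 around a median of 0.40.

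The 25 regions unique to MP2_HDAC1_OE had a median rank of 37.4, against 41.6 for all such regions, and the 33 shared regions had a median rank of 77.4 in that list, against 74.6 for all shared regions. An MP2_NTC peak lay within 500 bp of 6 of the 25, compared with 19.4% of all regions unique to MP2_HDAC1_OE. Of the 8 regions unique to MP2_NTC, 3 had an MP2_HDAC1_OE peak within 500 bp, compared with 21.5% of all. In MP2_NTC the 8 unique regions had a median rank of 42.1, against 39.1 for all such regions. The 33 shared regions had a median rank of 63.8 there, against 71.8 for all shared regions. A region took the rank of its highest peak in each list. Unique regions were thus on the whole weaker than shared ones in these windows, as they were in the lists.

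Other genes of the pathway were taken from lists chosen by function. Of 10 other basic leucine zipper genes, 4 had a gene-end peak in each line and 3 had one in both, with 2 ranking higher in MP2_HDAC1_OE and a median difference of 0.46 points. *ATF2*, which pairs with c-Jun at the CRE, ranked 95.6 and 95.1, and *ATF4*, the effector of the integrated stress response, ranked 93.6 and 86.4. *ATF7*, a close relative of *ATF2*, ranked 38.1 and 66.2. Of 13 kinases and ternary complex factors upstream of AP-1, 9 had a gene-end peak in MP2_HDAC1_OE and 12 in MP2_NTC, and of the 9 with both, 4 ranked higher in MP2_HDAC1_OE and 5 in MP2_NTC (median difference −2.48). *MAPK3*, a kinase gene of the growth factor pathway, ranked 80.1 in MP2_HDAC1_OE and 82.6 in MP2_NTC, while *MAPK8*, which encodes the Jun kinase JNK1, ranked 28.4 and 59.3. Of 9 other immediate early genes, 6 had peaks in both lines, with 3 higher in each and a median difference of −0.11. *EGR1* ranked 90.5 and 96.3, *EGR3* 35.2 and 10.6, and *IER2* 66.0 and 62.8.

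The labelled cell type was checked on marker genes. Of 6 epithelial markers 3 had gene-end peaks in both lines. The neighbours *KRT8* and *KRT18* shared 1 strongest peak, which ranked 61.1 in MP2_HDAC1_OE and 76.2 in MP2_NTC, *KRT19* ranked 42.8 and 6.86, and *KRT7*, *EPCAM* and *CDH1* had none. Both mesenchymal markers, *VIM* (86.2 and 69.1) and *ZEB1* (58.9 and 30.8), had peaks in both lines and ranked higher in MP2_HDAC1_OE. The part of these markers in the ranks of the AP-1 genes was not tested. None of 3 leukocyte markers and none of 4 islet and acinar markers had a gene-end peak, and of 2 endothelial markers *CDH5* had one in both lines (67.9 and 47.7).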

How the data were processed

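The H3K27ac data of MP2_HDAC1_OE and MP2_NTC cells were analysed from the deposited peak lists, 1 per line. Per the labels and the study's methods, the ENCODE ChIP-seq pipeline was used, and each list is the optimal set of an irreproducible discovery rate analysis over 2 H3K27ac samples. The submitters' processing notes name BWA 0.7.12, Picard 1.88, SAMtools and hg38. The authors deposited a signal for each peak, the caller's enrichment value. The lists hold no read counts, so depth and precision are unknown, and an unlisted peak may lie just under the authors' threshold. Some intervals are listed more than once, with other summits and signals, and peak counts are of these listed entries unless intervals are named.

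Ranks, merged regions (overlap of at least 1 bp) and distances were computed with Python 3.11.15, numpy 2.4.6, pandas 2.3.3 and scipy 1.17.1, in code tested on simulated data. Gene positions, strands and promoters came from RefSeq tables (GRCh38.p14). Intervals are 95% Wilson and cover counting error only. The members, lists and settings were chosen with earlier results of these data known. All 10 members were described, and other genes were named where a peak of a member window lay at their end or as the first measured examples of a list, of which 1 is not reported here. Genes holding a distal region were named after the values were seen. The alternatives varied the overlap, gaps, signal cut, window sizes and members, and a list test was not run. Signal tracks and the control samples were not analysed here.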

Additional observations from a re-analysis of the deposited data

How the results depend on the processing

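Of 100 alternative values for 12 results, 93 stayed within the margins used: a count within 1.5 times the reported one, a share within its Wilson interval, or a median rank difference of the same sign and within the summed counting error of the ranks. These margins are wide, and the count unique to MP2_HDAC1_OE ran from 17 to 37. Some of the 93 could not have moved. *BATF3* had no region to leave out, and *JUN* had no shared region to change the median rank difference. With peaks counted as shared only at 50% overlap of both, 19 regions of the AP-1 windows were unique to MP2_NTC (23.5%, against 27.8% over all). With gaps of up to 500 bp bridged there were 5, and with 100 kb either side 17. With 25 kb either side 20 regions were distal. The median difference in rank of the shared regions changed sign with equal numbers of peaks per list (−0.093) and without the *FOSL1* window (−0.86). Leaving out a member window, and every alternative for the distal share and the *JUN* count, were added after seeing the data, as was the share of all genes ranking higher with equal numbers of peaks. The share unique to MP2_HDAC1_OE ran from 30.9% with gaps bridged, where 25.1% of all regions were unique to it, to 45.7% at 50% overlap, where 35.6% were. The share among distal regions ran from 44.0% for the top 75% of peaks (39.0% over all) to 56.5% without the *FOSB* window, and was 46.4% without *JUN*. The count of *JUN* regions unique to MP2_HDAC1_OE was 4 to 6 in windows of up to 50 kb and 9 with 100 kb. Without replicates, depth or an error between samples, none of these differences can be told from variation between samples. No paired analysis was possible because each line has 1 list pooled over its samples.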
